A study of Mus musculus with 12 samples.

Results

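The genes described here are 9 members of the purinergic system, through which cells sense and remove extracellular nucleotides and nucleosides: the G protein-coupled receptors P2ry12, P2ry13, P2ry6, Gpr34 and Adora3, the ATP-gated ion channels P2rx4 and P2rx7, and the surface enzymes Entpd1 and Nt5e. They were chosen by symbol from the 31054 features counted in the series, and all 9 were present. Single-cell RNA was sequenced from 12 libraries of C57BL/6J mice. GFP+ microglia-like cells (MLCs, 4 libraries) and GFP- endogenous microglia (4 libraries) were sorted from the brains of the same 4 recipients as CD45+ CD11b+ CX3CR1+ cells, so each mouse gave 1 library of each sort. The recipients had been conditioned with busulfan, an alkylating agent that depletes bone marrow, and received hematopoietic stem and progenitor cells of male donors transduced with LVV.GFP, a lentiviral vector for green fluorescent protein, by intravenous (i.v., 1 female and 1 male) or intracerebroventricular (i.c.v., 1 female and 1 male) injection. Mice of both routes also received untransduced bone marrow i.v., so the GFP- sort may hold unmarked marrow-derived cells. The labels give these mice an age of 22 to 28 weeks, whereas the design text gives 12 to 13 months after dosing. An untreated mouse, of 8 to 12 weeks by the labels, gave 1 library each of microglia, blood cells, astrocytes and a neuron sort.

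Microglia survey brain tissue with processes that extend toward ATP and ADP leaking from active or injured cells, and P2Y12, encoded by P2ry12, is the ADP receptor known for this response and a widely used marker of resting microglia. ATP opens the P2X channels, P2X7 only at high concentration and with a known link to NLRP3 inflammasome activation, and UDP acts on P2Y6, known for its part in microglial phagocytosis. CD39, encoded by Entpd1, degrades ATP and ADP to AMP, and CD73, encoded by Nt5e, turns AMP into adenosine, the ligand of the A3 receptor encoded by Adora3.

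Promoters are shown for the members with the 2 largest decreases between the sorts (Adora3 and P2ry12), for P2rx4, which rose, and for P2ry13, the chromosomal neighbor of P2ry12. Each line holds the 250 bases before the RefSeq start of the gene (GRCm38.p6), on the strand of the gene, and capitals mark AGGAAGT or its reverse complement, a purine-rich word of the kind bound by the myeloid factor PU.1.
P2ry12, chr3:59262986-59263235, minus strand: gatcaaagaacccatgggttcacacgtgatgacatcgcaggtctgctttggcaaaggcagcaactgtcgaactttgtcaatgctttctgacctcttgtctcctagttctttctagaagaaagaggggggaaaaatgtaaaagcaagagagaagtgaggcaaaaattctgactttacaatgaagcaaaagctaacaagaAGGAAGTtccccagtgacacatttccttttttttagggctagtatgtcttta
Adora3, chr3:105904171-105904420, plus strand: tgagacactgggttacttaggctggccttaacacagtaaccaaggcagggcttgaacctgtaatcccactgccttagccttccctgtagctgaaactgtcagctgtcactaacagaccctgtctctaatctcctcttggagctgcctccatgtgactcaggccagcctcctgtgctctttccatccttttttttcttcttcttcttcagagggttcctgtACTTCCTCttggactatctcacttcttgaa
P2ry13, chr3:59210883-59211132, minus strand: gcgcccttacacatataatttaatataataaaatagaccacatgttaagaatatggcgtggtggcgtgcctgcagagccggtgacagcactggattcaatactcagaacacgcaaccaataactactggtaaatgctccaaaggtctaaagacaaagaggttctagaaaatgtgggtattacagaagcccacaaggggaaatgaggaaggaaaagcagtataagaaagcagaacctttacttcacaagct
P2rx4, chr5:122707294-122707543, plus strand: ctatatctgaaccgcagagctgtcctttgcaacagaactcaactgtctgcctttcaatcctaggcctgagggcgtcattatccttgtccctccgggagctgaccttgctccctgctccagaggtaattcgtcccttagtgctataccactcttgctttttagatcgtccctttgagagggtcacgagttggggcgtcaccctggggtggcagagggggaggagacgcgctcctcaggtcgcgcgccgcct
The word AGGAAGT, chosen after these sequences were seen, began 52 bases before the start of P2ry12 and was found on the reverse strand 30 bases before that of Adora3, where it lay within the longer GAGGAAGT. On either strand it was held by 7.69% of the 32851 promoters of the same length, and GAGGAAGT by 2.44%. The promoters of P2ry13 and P2rx4 held neither, nor did those of P2rx7, Entpd1 and Nt5e. Promoters of P2ry6 and Gpr34 were not in the table. The AP-1-type word TGANTCA (6.75% of promoters) was found in those of Adora3 and P2rx7, while TATAAA (12.4%) and the MEF2-type word, CTA and TAG with 4 bases between them (3.20%), were in no member promoter. These matches describe letters only.

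On GRCm38, P2ry12 (chr3:59216272-59262871, minus strand) and P2ry13 (chr3:59207892-59210882, minus strand) lay 5389 bases apart, both inside Med12l on the opposite strand. P2rx7 (chr5:122643911-122691432) and P2rx4 (chr5:122707544-122729738) lay 16111 bases apart on the plus strand. Gpr34 (chrX:13632089-13640858, plus strand) lay inside Cask on the opposite strand, and Adora3 (chr3:105870858-105908926, plus strand) overlapped Tmigd3 on the same strand. P2ry6 (chr7:100937630-100974649, minus strand), Entpd1 (chr19:40612366-40741602, plus strand) and Nt5e (chr9:88327197-88372092, plus strand) overlapped no other protein-coding gene. Whether the counting used strand is not given in the sources used here, so reads of overlapping genes could be split between them. Med12l had a mean of 47.3 CPM in the GFP- and 10.7 CPM in the GFP+ libraries, Cask 55.4 and 33.1 CPM, and Tmigd3 1.74 and 0.393 CPM.

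Levels are counts of unique molecular identifiers (UMIs) of a gene per 1000000 UMIs of a library (CPM), summed over barcodes that had 200 or more detected genes and no more than 10% of UMIs from mitochondria. The kept cells held 8835197 to 16514669 UMIs per GFP+ library, 4970758 to 8105756 per GFP- library and 987965 to 4804709 per untreated library. Median UMIs per cell were 3499 in the i.v. female GFP+ library, 842 to 1308 in the other treated libraries and 425 in the untreated microglia. EGFP reached 16.8 to 33.3 CPM in the GFP+ and at most 0.153 CPM in the GFP- libraries. Of 8 microglia markers, none was at 0 in any treated library, and the summed level of the list was 9863 to 13961 CPM in the GFP- and 5018 to 9558 CPM in the GFP+ libraries. In the untreated neuron sort, 95.5% of cells carried at least 3 oligodendrocyte markers and 0.522% at least 3 neuron markers, so it is called the neuron sort by its label only. No pair of libraries shared more than 8 barcodes. In these pooled sums, fewer cells with a transcript and fewer transcripts per cell cannot be told apart.

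Relative to the counted RNA of their libraries, MLCs had lower levels of 4 members than endogenous microglia and a higher level of 1. P2ry12, P2ry13, Gpr34 and Adora3 fell and P2rx4 rose in edgeR's quasi-likelihood test after TMM normalization (adjusted p under 0.05, Benjamini-Hochberg over 11756 genes). P2ry6, P2rx7 and Entpd1 did not pass, and Nt5e had too few UMIs to be tested. Of all tested genes, 15.9% were called lower and 16.6% higher in GFP+ cells. The median log2 change was -0.61 over the 8 tested members and 0.01 over all tested genes.

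P2ry12 was measured at 1372 CPM (i.v. female), 1719 CPM (i.v. male), 867 CPM (i.c.v. female) and 1545 CPM (i.c.v. male) in the GFP- libraries. In the GFP+ libraries of the same mice it was at 319, 274, 515 and 461 CPM. The lowest GFP- library thus lay above the highest GFP+ library, and the means were 1376 ± 368 and 392 ± 114 CPM (SD, n = 4 each). The log2 change was -1.53 (SE 0.23, adjusted p = 0.00218). The untreated microglia had 1760 CPM, while blood cells had 1.14, astrocytes 6.04 and the neuron sort 0.269 CPM.

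P2ry13, a second Gi-coupled ADP receptor, followed the same order at a smaller distance. Its GFP- libraries held 362, 395, 237 and 332 CPM and its GFP+ libraries 134, 121, 199 and 191 CPM, in the order i.v. female, i.v. male, i.c.v. female and i.c.v. male. The groups did not overlap, although the i.c.v. female was close (237 against 199 CPM). The log2 change was -0.76 (SE 0.17, adjusted p = 0.0112). The untreated microglia had 411 CPM.

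Gpr34, a receptor for lysophosphatidylserine that belongs by sequence to the P2Y12-like group, was at 1382, 1170, 943 and 1104 CPM in GFP- and at 463, 345, 658 and 519 CPM in GFP+ cells, in the same order of mice. All 4 GFP+ libraries lay below all GFP- libraries. The log2 change was -0.94 (SE 0.17, adjusted p = 0.00507), and the untreated microglia had 1271 CPM.

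Adora3 showed the largest change of the members. GFP- libraries held 61.2, 68.3, 38.1 and 61.7 CPM, and GFP+ libraries 4.48, 2.33, 5.66 and 3.21 CPM, or 23 to 74 UMIs per library. The mean was 14.6-fold lower in GFP+ cells on the CPM scale (57.3 ± 13.2 against 3.92 ± 1.46 CPM, SD, n = 4), and the log2 change was -3.58 (SE 0.24, adjusted p = 9.40e-05). The untreated microglia had 101 CPM (95% Poisson interval 82.4 to 123, counting error only), above each of the 4 GFP- libraries. Blood cells had 1.14 CPM from 3 UMIs, and no UMI was found in astrocytes or the neuron sort, where 3 UMIs would give 0.624 and 0.807 CPM.

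P2rx4 was the member that rose. GFP+ libraries had 159, 215, 211 and 234 CPM and GFP- libraries 143, 185, 172 and 185 CPM, so GFP+ was higher in 4 of 4 mice while the groups overlapped through the i.v. female. After TMM normalization the groups no longer overlapped and the log2 change was 0.54 (SE 0.14, adjusted p = 0.0195). The call rested on the scaling: without TMM, where the median gene was lower in GFP+ cells by 0.27 on the log2 scale, the change was 0.26 (adjusted p = 0.177). It was also lost when the i.v. male GFP- library (adjusted p = 0.0526), the i.v. male GFP+ library (0.0525) or the i.c.v. male GFP+ library (0.0504) was left out. P2rx4 was also present outside microglia, at 91.2 CPM in blood cells, 32.9 in astrocytes and 39.6 CPM in the neuron sort.

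**Figure D1:**
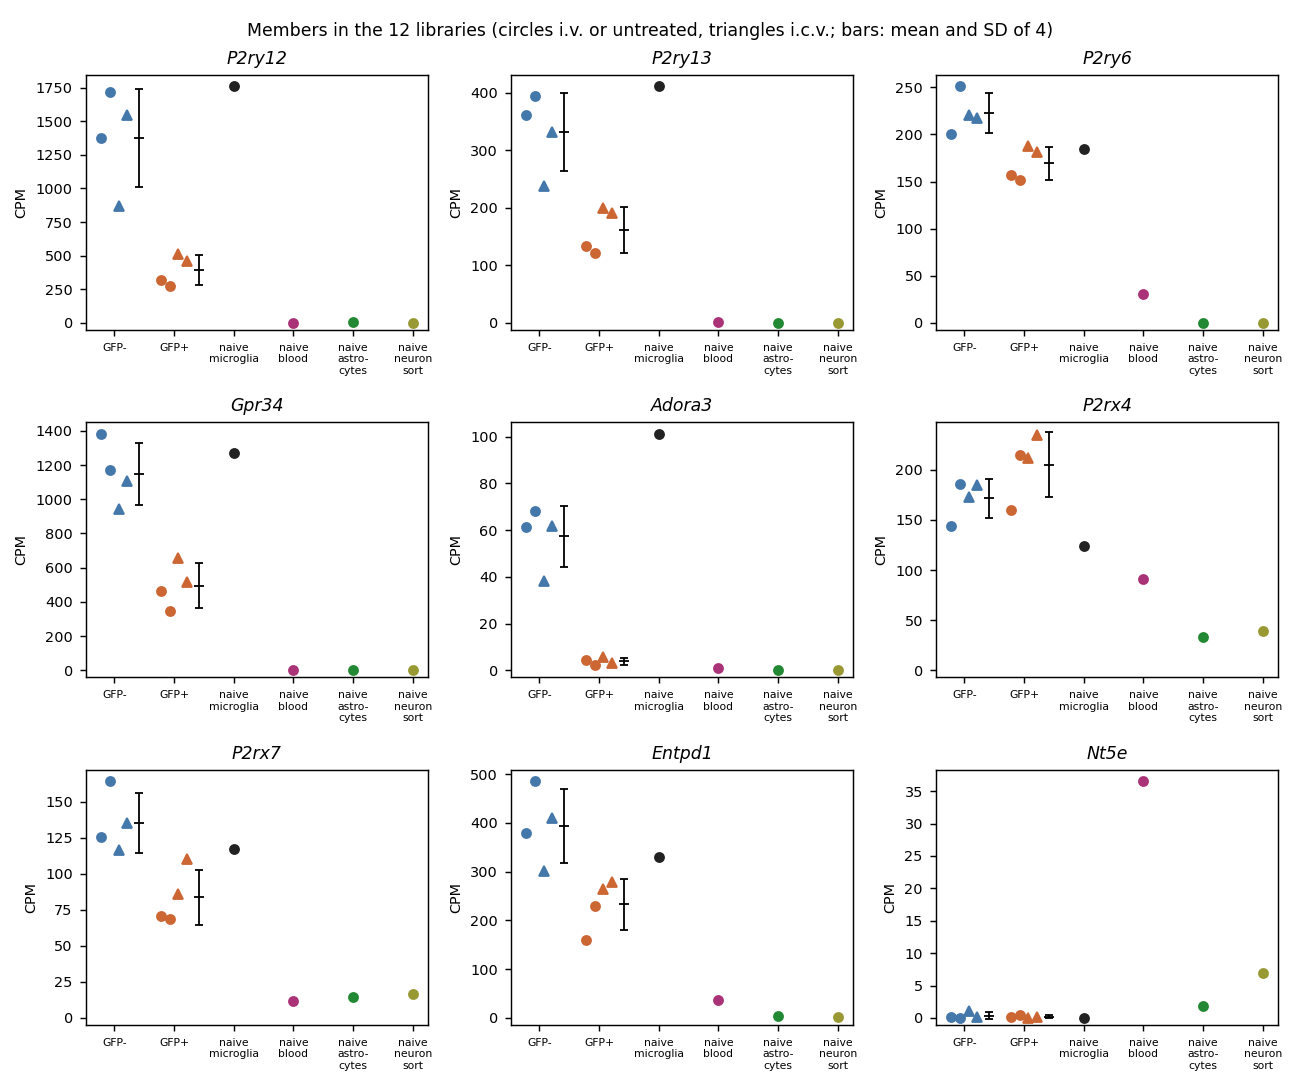
CPM of each member (vertical axis, linear and separate for each gene) in GFP- and GFP+ libraries (circles i.v., triangles i.c.v., bars mean and SD of 4) and in 1 untreated library of microglia, blood cells, astrocytes and the neuron sort. For Adora3 the GFP+ points lie at 2.33 to 5.66 CPM and the GFP- points at 38.1 to 68.3 CPM, whereas for P2rx4 the GFP+ points are mostly the higher ones.

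P2rx7 and Entpd1 were lower in GFP+ cells in 4 of 4 mice without passing the test. P2rx7 was at 126, 165, 116 and 135 CPM in GFP- and 70.5, 68.4, 85.9 and 110 CPM in GFP+ libraries (log2 change -0.41, SE 0.15, adjusted p = 0.0604). Entpd1 was at 379, 485, 302 and 410 CPM in GFP- and 161, 230, 264 and 279 CPM in GFP+ libraries (log2 change -0.47, SE 0.17, adjusted p = 0.0634). In CPM neither gene's groups overlapped, but after TMM normalization both did. Both passed with DESeq2 (adjusted p = 0.0422 for P2rx7 and 0.0339 for Entpd1) and without TMM (0.0120 and 0.0143), and leaving out the i.c.v. male GFP+ library let P2rx7 pass (0.0145) and leaving out the i.c.v. female GFP- library let Entpd1 pass (0.0447).

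P2ry6 had the smallest log2 change of the tested members after TMM normalization, whereas in CPM P2rx4 differed less (1.196-fold higher in GFP+ cells, against 1.31-fold lower for P2ry6). The P2ry6 means were 222 ± 21.2 CPM in GFP- and 169 ± 17.8 CPM in GFP+ libraries (SD, n = 4), and the log2 change was -0.11 with a 95% interval of -0.34 to 0.11 (adjusted p = 0.408). Without TMM it was -0.39 (adjusted p = 0.0256). In CPM, 7 of the 9 members had all GFP+ libraries below all GFP- libraries, where 32.6% of all tested genes did so.

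Nt5e was nearly absent from the brain sorts. The 8 treated libraries held 19 Nt5e UMIs in all, from 0 to 9 per library, and the untreated microglia held 0, where 3 UMIs would give 3.04 CPM. Of the 19 UMIs, 13 were in the 76 cells with at least 3 neutrophil markers, out of 27439 cells. Cells with at least 3 monocyte markers also had higher means than the rest, though they were lower in 1 of the 3 GFP- libraries that held such cells. Their means were 17.7 against 0.0309 CPM in 2 GFP+ libraries (16 to 30 such cells, at 3.16 and 32.15 CPM). In 3 GFP- libraries (1 to 10 such cells, at 0 to 65.3 CPM) they were 32.1 against 0.150 CPM. A cell could carry both lists, so the UMIs are not assigned to either type. Blood cells had 36.5 CPM (96 UMIs), and there the cells with at least 3 neutrophil markers had 125 CPM (95% Poisson interval 62.6 to 224), the other cells 33.4 CPM. The neuron sort held 26 Nt5e UMIs and astrocytes 9.

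**Figure D2:**
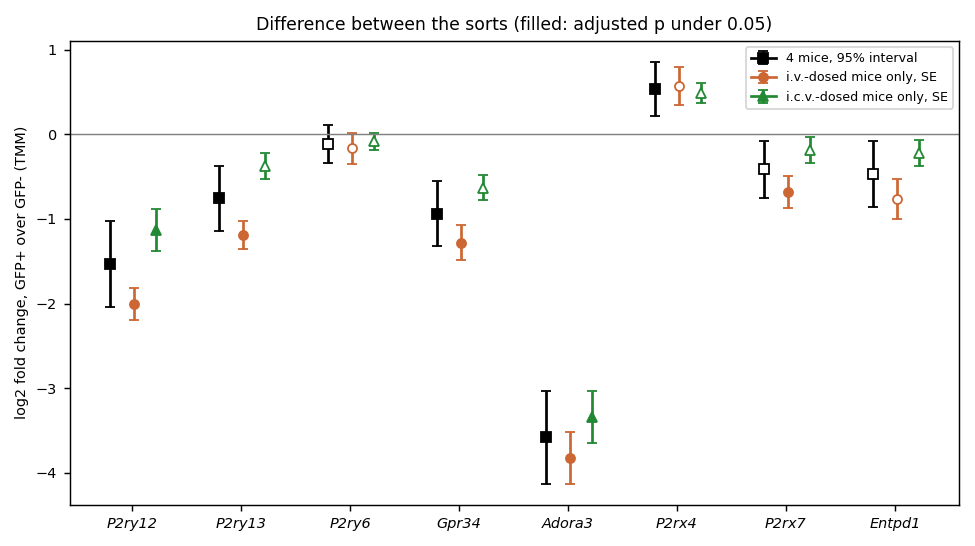
Log2 fold change of the 8 tested members between GFP+ and GFP- libraries after TMM normalization, for all 4 mice (squares, 95% interval), the 2 i.v.-dosed mice (circles, SE) and the 2 i.c.v.-dosed mice (triangles, SE). Filled symbols passed an adjusted p of 0.05, and 7 of the members lie below 0 in each of the fits, with P2rx4 above it.

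Some markers of CNS-associated macrophages (CAMs), the macrophages of brain borders and vessels, moved with the sorts. The summed level of 8 CAM markers was 881 to 1591 CPM in GFP- and 2021 to 2669 CPM in GFP+ libraries, with none at 0. Of these, Mrc1, Pf4 and Ms4a7 rose and Cd163 fell. Lyve1, F13a1, Cbr2 and Stab1 did not pass (adjusted p = 0.511, 0.297, 0.703 and 0.0547). Ms4a7 (mean 246 CPM in GFP- and 805 CPM in GFP+ libraries) and Mrc1 (257 and 530 CPM) had the largest rises in CPM, so the sum does not stand for the whole list. Cells with at least 3 of them made up 3.89% to 13.1% of the GFP- and 33.8% to 48.2% of the GFP+ cells. The members were therefore compared between cells with and without these markers inside each library. Such cells were deeper (4271 to 4945 against 1285 to 1734 mean UMIs per cell in GFP- libraries, 5584 to 6647 against 1470 to 3810 in GFP+ libraries), and the part of depth in these values was not tested, so the comparison is a description.

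Among GFP- cells, those with CAM markers were low in the 4 members called lower in MLCs and in Entpd1, but not in P2rx7. P2ry12 was at 461 ± 149 CPM in GFP- cells with at least 3 CAM markers and 1594 ± 359 CPM in the other GFP- cells. Gpr34 was at 527 ± 37.1 against 1303 ± 125 CPM, P2ry13 at 172 ± 31.7 against 369 ± 59.4 CPM, Adora3 at 8.36 ± 1.86 against 69.3 ± 11.2 CPM and Entpd1 at 214 ± 36.8 against 437 ± 72.0 CPM (SD, n = 4 libraries each). Each was lower in 4 of 4 libraries and the ranges did not overlap, though the share of all genes that do so was not counted. P2ry6 was lower in 4 of 4 libraries as well, at 195 ± 47.5 against 228 ± 19.7 CPM, with overlapping ranges. P2rx7 and P2rx4 were each higher in 3 of 4 libraries, at 172 ± 72.8 against 129 ± 11.1 CPM and 194 ± 35.9 against 169 ± 20.1 CPM.

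Among GFP+ cells the split by CAM markers went different ways by route for 7 of the 8 members compared. How many of all genes split in the same way was not counted. Depth also differed by route. The GFP+ cells without CAM markers had 3810 and 2974 mean UMIs in the i.v. libraries and 1775 and 1470 in the i.c.v. libraries (female and male). P2ry12, P2ry13, P2ry6, P2rx7, P2rx4, Gpr34 and Entpd1 were each higher with CAM markers in both i.v. and lower in both i.c.v. GFP+ libraries. P2ry12 was at 339 and 361 CPM in the i.v. GFP+ cells with CAM markers and at 289 and 157 CPM in the other i.v. GFP+ cells (female and male). In the i.c.v. GFP+ libraries it was at 429 and 418 CPM with CAM markers and at 676 and 568 CPM without. Gpr34 showed the same order, with 537 and 459 CPM against 350 and 192 CPM in i.v. libraries, and 586 and 498 CPM against 792 and 572 CPM in i.c.v. libraries. Entpd1 was at 179 and 236 against 133 and 221 CPM in i.v. libraries, and at 217 and 246 against 351 and 359 CPM in i.c.v. libraries. P2ry13 differed little in the i.c.v. libraries (198 and 188 CPM with and 202 and 198 CPM without CAM markers). The GFP+ cells without CAM markers lay below the 1128 to 1910 CPM of P2ry12 in the corresponding GFP- cells. Adora3, the exception, was lower with CAM markers in 4 of 4 GFP+ libraries (1.93 ± 0.635 against 7.70 ± 3.66 CPM).

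**Figure D3:**
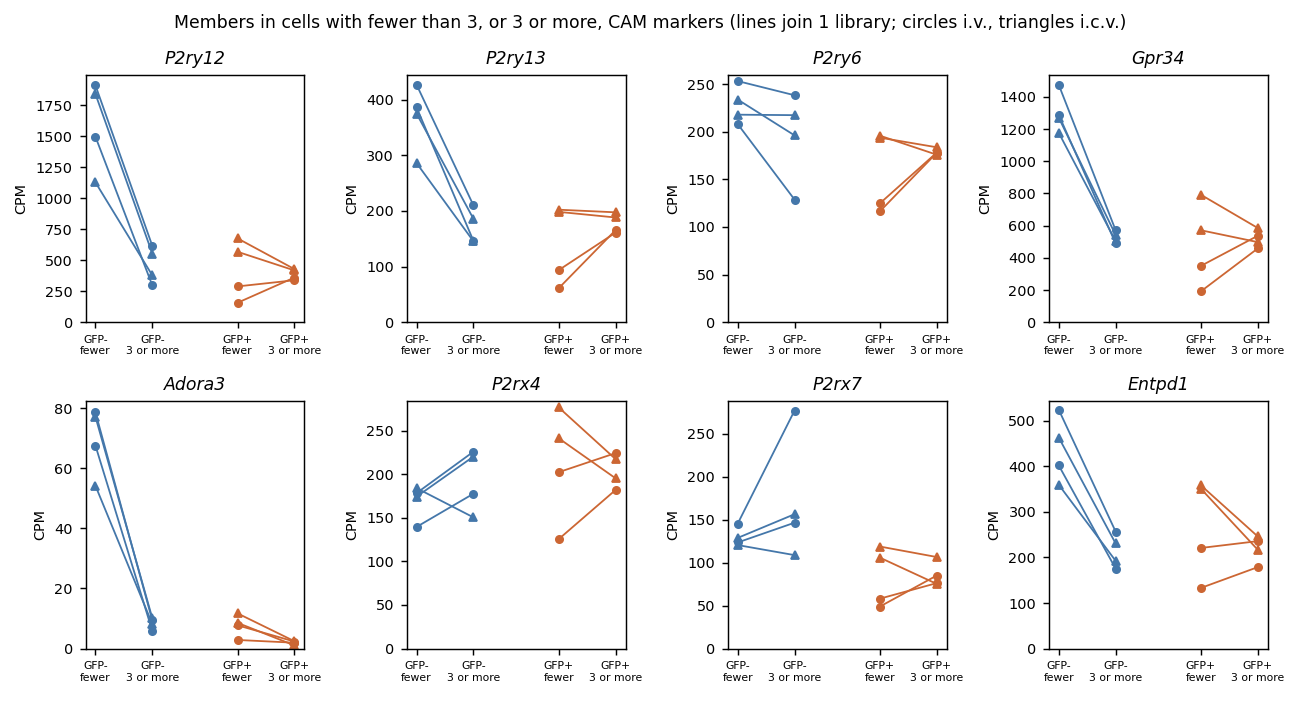
CPM of the members other than Nt5e in cells with fewer than 3, or with 3 or more, of 8 CAM markers, joined by a line for each of the 8 treated libraries (blue GFP-, orange GFP+, circles i.v., triangles i.c.v.). P2ry12 drops in all 4 GFP- libraries, to 297 to 616 CPM, while the GFP+ lines rise in the i.v. and fall in the i.c.v. libraries.

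With cells carrying at least 3 markers of any type except microglia left out, P2ry12, P2ry13, Gpr34 and Adora3 were still called lower in GFP+ cells. P2rx4 then had a log2 change of 0.61 with an adjusted p of 0.0641. CAM counted as another type here, and 49.5% to 65.9% of the GFP+ and 86.2% to 95.4% of the GFP- cells of a library remained. Platelets also use P2Y12. Of 7 platelet markers only Gp9 had enough UMIs to be tested, and it fell (log2 change -2.72, adjusted p = 0.00139). Its means of 24.7 CPM in GFP- and 3.12 CPM in GFP+ libraries made up most of the list means of 26.9 and 4.01 CPM. Gp9 was at 25.3 CPM in the untreated microglia and 1.90 CPM in blood cells, so its fall does not stand for the platelet list. The list summed to 15.9 to 34.4 CPM in GFP- and 1.82 to 6.68 CPM in GFP+ libraries, Gp1bb was at 0 in every GFP- library and Gp1ba in every GFP+ library, and no cell of either sort carried 3 platelet markers.

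The members were also read in single cells. Shares of cells with a UMI were taken after 500 UMIs had been drawn from each cell, so that depth was equal. P2ry12 was found in 46.8% ± 8.35 of GFP- and 15.5% ± 2.89 of GFP+ cells (SD, n = 4), and in 56.8% of the untreated microglia, where 482 of 1274 kept cells reached 500 UMIs, as every kept cell of the treated libraries did. The share was 0.262% of 1146 astrocytes and 0 of 334 blood cells, which allows up to 0.898%. Gpr34 was found in 40.3% ± 1.73 of GFP- and 17.1% ± 2.24 of GFP+ cells, and P2ry13 in 16.5% ± 2.23 and 8.19% ± 1.64. P2rx4 ran the other way, in 7.48% to 9.20% of GFP- and 9.27% to 16.1% of GFP+ cells.

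Adora3 was found in 2.37% to 3.75% of GFP- cells and in 5.39% of the untreated microglia (95% exact interval 3.55% to 7.80%). In GFP+ libraries the shares were 0.299%, 0.0883%, 0.572% and 0.226% (i.v. female, i.v. male, i.c.v. female, i.c.v. male). Astrocytes, in which the gene was not found, allow a share of up to 0.262% of 1146 cells, and 2 of the 4 GFP+ shares lay below this limit. In counts over all cells, the lowest GFP+ library (2.33 CPM, 95% Poisson interval 1.48 to 3.497) lay above the upper limit of 0.768 CPM in astrocytes, while its interval overlapped that of blood cells (0.235 to 3.33 CPM).

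At 500 UMIs the groups of libraries did not overlap for P2ry12, P2ry13, Gpr34, Adora3 and P2rx4, but this set changed with the setting. How many of all genes separate in this way was not counted, so the set only describes the members. P2ry12, Gpr34 and Adora3 were separate, and lower in GFP+ cells, at every depth tried. The setting of 1000 UMIs also left out the shallower cells, so depth and cells changed together. It kept 1810 of 4555 cells in the i.v. male GFP- library and 2561 of 3344 in the i.v. female GFP+ library, for example. At 1000 UMIs P2rx4 overlapped (14.7% to 19.2% of GFP- and 15.03% to 24.3% of GFP+ cells), and P2rx7 and Entpd1 were separate and lower in GFP+ cells. At the cells' own depth, P2ry12 was found in 68.1% ± 6.85 of GFP- and 42.9% ± 4.79 of GFP+ cells, P2ry13 overlapped (28.3% to 34.9% and 27.2% to 35.6%), and P2ry6 (25.7% and 36.7%), P2rx7 (17.7% and 22.8%), Entpd1 (38.9% and 43.8%) and P2rx4 (21.3% and 42.9%) were separate with the GFP+ mean the higher one. These unthinned shares were not taken at equal depth. At 500 UMIs, 81.7% ± 4.21 of GFP- and 57.9% ± 5.44 of GFP+ cells held a UMI of at least 1 member, and 18.1% ± 3.55 and 4.98% ± 1.01 held UMIs of at least 3 different members.

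**Figure D4:**
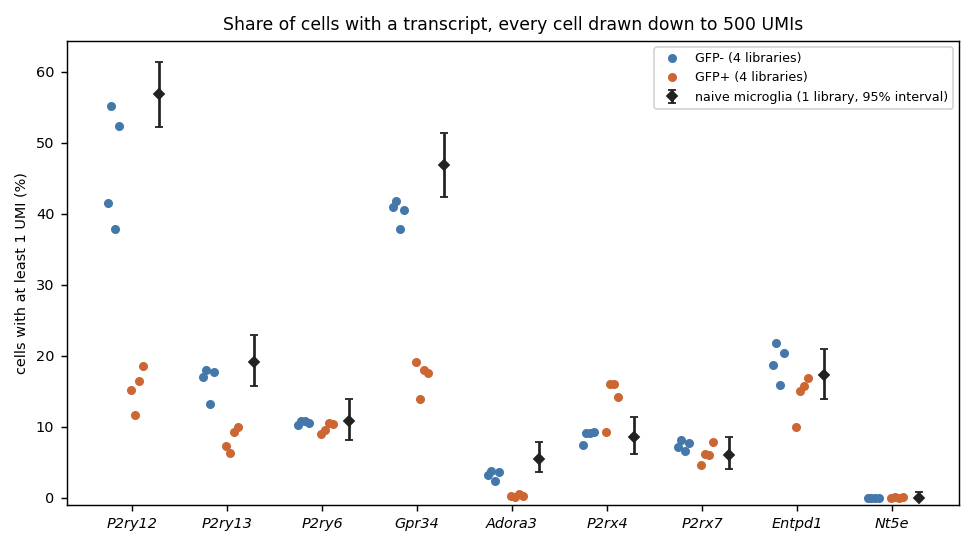
Percent of cells with at least 1 UMI of each member after each cell was drawn down to 500 UMIs, in the 4 GFP- libraries (blue), the 4 GFP+ libraries (orange) and untreated microglia (black, 95% exact interval). P2ry12 and Gpr34 are separated most in percentage points, and P2rx4 is higher in the GFP+ libraries.

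The route of dosing was compared within each sort to ask whether i.v. and i.c.v. dosing gave MLCs with different levels of these genes. No member was called for route in GFP+ cells (2.78% of 12540 genes were), and 2 of 8 had an unadjusted p under 0.05, as did 2066 of all genes. P2ry12 was at 319 and 274 CPM in the i.v. and 515 and 461 CPM in the i.c.v. GFP+ libraries (log2 change -0.61, SE 0.24, adjusted p = 0.263), and P2ry13 at 134 and 121 against 199 and 191 CPM (-0.50, SE 0.16, adjusted p = 0.166). In CPM the 2 routes did not overlap in GFP+ cells for these genes. Of the other tested members, P2ry6, P2rx7, Gpr34 and Entpd1 did not overlap either, and P2rx4 and Adora3 did. How many of all genes separate by route in this way was not counted. Monocyte markers summed to 284 and 197 CPM in i.v. and 1.70 and 2.48 CPM in i.c.v. GFP+ libraries, and neutrophil markers to 1678 and 3368 against 0 and 0.550 CPM. With cells carrying 3 markers of another type left out, P2ry13 (-0.89, adjusted p = 0.0266) and P2rx7 (-0.62, adjusted p = 0.0473) were called lower in i.v. GFP+ cells, and 363 genes were called lower and 1176 higher, against 27 and 321 with all cells. Of the 6 lists described further on, P2ry10, Dpp4, Gda and Anxa1, named after their values were seen, were called higher in i.v. GFP+ cells.

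In GFP- cells no gene was called for route by edgeR (0%, with 1063 genes at an unadjusted p under 0.05), DESeq2 called 67 lower and 1 higher, and no member passed with either tool. P2ry12 overlapped between routes, with 1372 and 1719 CPM in i.v. and 867 and 1545 CPM in i.c.v. GFP- libraries. The i.c.v. female GFP- library, the lowest for P2ry12, P2ry13, Gpr34, Adora3, P2rx7 and Entpd1, also had the largest share of cells with CAM markers (13.1%) and the highest sum of neutrophil markers (6236 CPM), and their part in these levels was not tested.

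Whether the difference between sorts depended on route was tested as an interaction, which called 1.91% of 12540 genes and no member. The difference was larger in i.v.- than in i.c.v.-dosed mice for P2ry12 (-2.002 against -1.13 in fits of each route alone), P2ry13 (-1.19 against -0.37) and Gpr34 (-1.28 against -0.63), and the interaction had an unadjusted p under 0.05 for these 3 members and for 2237 of all genes. Their interaction terms were -0.86 (SE 0.34, adjusted p = 0.238), -0.81 (SE 0.23, adjusted p = 0.115) and -0.64 (SE 0.27, adjusted p = 0.257). With the mouse as a block they were -0.91, -0.82 and -0.65 (adjusted p = 0.125, 0.0509 and 0.104), while the genes called went from 14 lower and 226 higher to 70 lower and 608 higher. With i.c.v. mice alone, P2ry12 (adjusted p = 0.0445) and Adora3 (-3.34, adjusted p = 0.00559) passed, whereas P2ry13 (0.179), Gpr34 (0.0513) and P2rx4 (0.0528) did not. P2rx4 changed by much the same amount in both routes, 0.57 in i.v. and 0.49 in i.c.v. mice.

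Recipient sex called no member in either sort, and 0% and 0.0319% of all genes in GFP+ and GFP- cells. In GFP+ cells 455 genes had an unadjusted p under 0.05 and DESeq2 called 3. Adora3 was the member with an unadjusted p under 0.05 for sex in GFP+ cells, at 4.48 and 5.66 CPM in females and 2.33 and 3.21 CPM in males (log2 change 0.81, SE 0.25, adjusted p = 0.966). In GFP- cells its order was the reverse, at 61.2 and 38.1 CPM in females and 68.3 and 61.7 CPM in males (-0.36, adjusted p = 0.9997).

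Genes around the members were read from 6 lists. Among 18 other purine receptors, 6 were tested, of which 2 fell and 1 rose in GFP+ cells. P2ry10b, whose reads may be shared with its paralog P2ry10, fell from 25.4 ± 3.01 to 13.0 ± 0.994 CPM (log2 change -0.68, adjusted p = 0.00309). The other two, named here after their values were seen, were P2rx1, another ATP-gated channel, at 3.72 and 0.833 CPM in GFP- and GFP+ cells, and P2ry14, the receptor for UDP-glucose, at 4.16 and 9.36 CPM. Gpr183, an oxysterol receptor, was at 326 ± 66.0 and 287 ± 63.7 CPM and did not pass (adjusted p = 0.764).

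Of the other genes of nucleotide and nucleoside turnover, those called were all enzymes and all higher in GFP+ cells, where 16.6% of all tested genes were called higher. Of 17 other extracellular enzymes, 10 were tested, 3 rose and none fell. Among them was Enpp4, a phosphodiesterase (19.7 ± 4.26 to 25.7 ± 3.28 CPM, log2 change 0.65, adjusted p = 0.0163). Of 20 listed genes of nucleoside uptake and salvage, 14 were tested, 6 rose and none fell, with a median log2 change of 0.51, and no tested nucleoside transporter passed. Those that rose included the purine salvage enzymes Hprt (0.56, adjusted p = 0.0113) and Aprt (0.47, adjusted p = 0.0379) and the intracellular nucleotidases Nt5c (0.71, adjusted p = 0.0142) and Nt5c3 (0.69, adjusted p = 0.00914). These log2 changes are after TMM normalization, and without it the calls over all genes went from 1869 lower and 1951 higher to 3803 lower and 770 higher, while all 31 called genes of the 6 lists kept their direction in mean CPM.

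Of 12 listed genes of ATP release, 9 were tested, with Lrrc8a, a volume-regulated anion channel subunit, lower (35.6 to 16.2 CPM, log2 change -0.86, adjusted p = 0.00280) and 2 higher, among them Vdac1 (0.52, adjusted p = 0.00764). Of 16 genes of P2Y12 coupling, 14 were tested, 6 fell and 2 rose. Kcnk6, a two-pore potassium channel, fell most of those named (88.6 ± 16.2 to 29.0 ± 8.51 CPM, log2 change -1.34, adjusted p = 0.00108). The subunits of phosphoinositide 3-kinase gamma also fell, Pik3cg by 0.44 (adjusted p = 0.0115) and Pik3r5 by 0.84 on the log2 scale (adjusted p = 0.00176), as did the adenylyl cyclase Adcy7 (-0.44, adjusted p = 0.0310) and Rasa3 (-0.34, adjusted p = 0.0245). Gnai2, the Gi alpha subunit (0.55, adjusted p = 0.0154), and Rgs2 (0.48, adjusted p = 0.0143) rose. Kcnk13, which encodes the THIK-1 channel that P2Y12 opens, was at 54.2 ± 3.26 and 38.1 ± 4.63 CPM and did not pass (adjusted p = 0.0673).

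All 12 genes of P2X7 output were tested, of which 4 fell and 4 rose. Casp1, the protease that matures interleukin 1 beta (0.74, adjusted p = 0.00687), Il18 (0.37, adjusted p = 0.0291), Tmem176a (1.53, adjusted p = 0.00178) and Tmem176b (1.45, adjusted p = 0.00112) rose. Pycard, the inflammasome adaptor (-0.51, adjusted p = 0.0295), Nek7 (-0.50, adjusted p = 0.00823), Ano6 (-0.32, adjusted p = 0.0428) and Pla2g4a (-0.82, adjusted p = 0.00313) fell. Nlrp3 was at 240 ± 77.9 and 246 ± 70.6 CPM and did not pass. The inflammasome genes of this list thus moved in both directions.

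**Figure D5:**
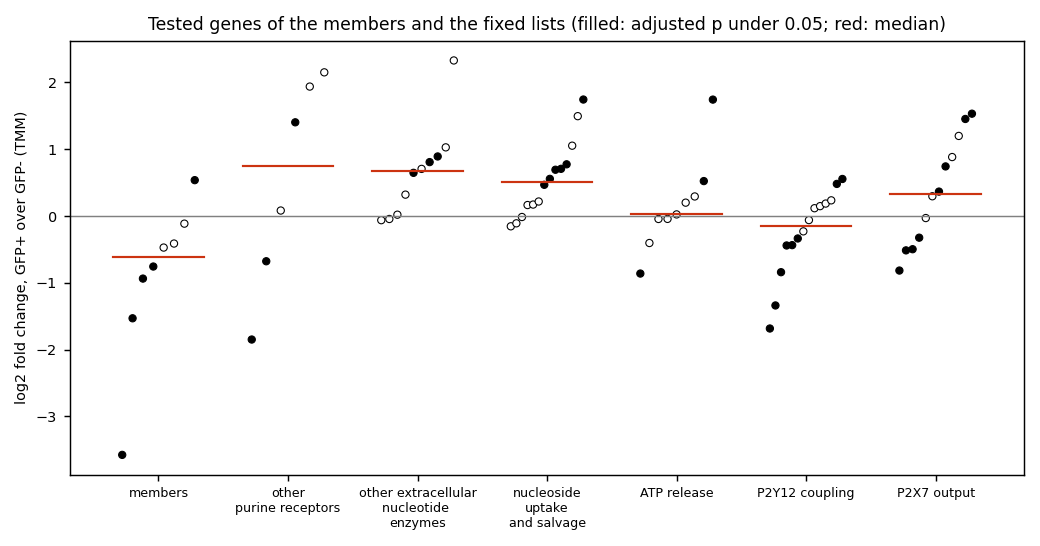
Log2 fold change between GFP+ and GFP- libraries (vertical axis, TMM) of the tested members and of the tested genes of 6 lists, with called genes filled and the median of each list as a red line. The median lies at -0.61 for the members and at 0.51 for nucleoside uptake and salvage.

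Over all 12 libraries the genes nearest to each member were found by log2(CPM + 1). Among 9669 genes the highest Pearson r of P2ry12 was 0.996, with Tlr12, followed by Gm15655 and Olfml3. P2ry13 was nearest to Tmem119 (r = 0.998), a microglia marker, then to Gpr34 and Gm15655, and Gpr34 to Siglech (r = 0.998), P2ry13 and Spint1. P2ry6 was nearest to Cd33 (r = 0.999), Ccl4 and Cx3cr1, and Entpd1 to Gna15 (r = 0.995). P2rx7 was nearest to Slc29a3 (r = 0.991), a lysosomal nucleoside transporter, Capn3 and Lgmn, and P2rx4 to Hlx (r = 0.984), Rnf150 and Gm44751. Adora3 was nearest to Upk1b (r = 0.987), Cds1 and Ebf3, and Nt5e to Ogdh (r = 0.964), Dpysl3 and Hbb-bs. These values describe 12 libraries that differ mainly in cell type and share their depth and sort, and between members they ran from 0.550 for P2rx4 with Adora3 to 0.998 for P2ry13 with Gpr34 when Nt5e is set aside. Nt5e had a negative r with every other member, from -0.86 with P2ry12 to -0.57 with Adora3.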

How the data were processed

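The data were 8 libraries from 4 treated mice and 4 of untreated cells. The authors deposited, per the file headers from Cell Ranger 3.1.0 (build mm10, per the labels), whole-number UMI counts per gene and barcode without normalization. Doublets were not removed here. Barcodes of 200 or more genes and no more than 10% mitochondrial UMIs entered, and counts were summed per library, the unit of replication. Sorts (4 against 4 libraries), routes and sexes (2 against 2 in fits to all 8) and the sort by route interaction were compared with edgeR 4.0.16 in R 4.3.3 (TMM, filterByExpr, quasi-likelihood F test, two-sided, Benjamini-Hochberg), which recovered 95.0% of 200 genes changed 4-fold in simulated data for the sorts, 86.5% and 82.0% for route in GFP+ and GFP- cells, 72.5% for the interaction and 72.5% and 74.5% for sex. Adjusted p-values in the text are from this test over all tested genes unless DESeq2 is named. The simulated data gave 10 to 15 false calls per comparison. They held 4-fold changes only, larger than those of the tested members not called, so they give no recovery rate for changes of that size. Shares were taken at 500 UMIs per cell (seed 1), with exact Clopper-Pearson and Poisson 95% intervals that cover counting error only. A count of 0 is given with the level 3 counts would give. Positions came from GENCODE vM21 and promoters from RefSeq. Named are all members, list genes called between the sorts with at least 20 CPM in the higher mean, and 3 nearest patterns per member; some of the latter are not reported here. The members and lists were chosen with earlier results of these data known. The mouse pairs the libraries by design, although deviations of same-mouse libraries from their group means correlated at 0.20, -0.27, -0.33 and 0.0092. Alternatives were other barcode filters, DESeq2 1.42.0, no low-count filter, upper-quartile scaling, cells with other markers left out, thinned cells, the mouse as a block, 1 route or sort alone, each library left out and, chosen after the data were seen, library totals without TMM. Other values used Python, numpy, scipy, pandas and matplotlib.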

Additional observations from a re-analysis of the deposited data

Results flagged for a closer look

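The share of cells with a P2rx4 UMI at 500 UMIs per cell came to 7.48% for the i.v. female GFP- library and at least 9.05% in the other 3 GFP- libraries, a gap of 91.0% of the group's range. Of 36 groups of 4 libraries examined (2 measures of 9 members in 2 sorts) this was the 1 that stood out, where chance gives about 1 in 20. The same library had the lowest P2rx4 CPM of the GFP- group (143 CPM against 172 to 185 CPM).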

How the results depend on the processing

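Between the sorts 5 members were called, and all 19 alternatives kept the direction of each tested member. P2ry12 (log2 change -2.002 to -1.13) and Adora3 (-3.87 to -2.89) were called in 19 of 19 alternatives, P2ry13 and Gpr34 in 18, P2rx4 in 12 (0.26 to 0.85), Entpd1 in 5, P2rx7 in 4 and P2ry6 in 1. In i.c.v.-dosed mice alone 2 members were called, with 2 against 2 libraries. For route in GFP+ cells 2 members were called when cells with markers of another type were left out, against 0 otherwise, and the cause was not tested. The mouse as a replicate block gave 5 called members for the sorts and 0 for the interaction, changed no member's call and, apart from the interaction, moved no count of all genes by over 1.5 times. Route in GFP-, the interaction and both sex comparisons had 0 called members under every alternative run, and the shares of cells with a UMI were separate for 5 members at 500 UMIs, 6 at 1000 UMIs, 7 at own depth and 7 with all barcodes, of which P2ry12, Gpr34 and Adora3 were separate at all 4 settings. For these shares the same count was not made over all genes.

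Counts over all genes moved more. Between the sorts (1869 lower, 1951 higher) they were 776 and 714 without cells of other markers, 703 and 561 with thinned cells, 3803 and 770 without TMM, 1199 and 978 leaving out the i.v. male GFP- library and 748 and 283 in i.c.v. mice. Route in GFP+ (27 and 321) gave 6 and 78 with thinned cells, 82 and 444 with DESeq2, 102 and 577 without the low-count filter, and 1 and 41 or 28 and 152 leaving out the i.c.v. female or male GFP+ library. The interaction (14 and 226) gave 6 and 136 with the stricter barcode filter, 72 and 637 without cells of other markers, 4 and 67 with thinned cells, 51 and 547 with DESeq2 and 62 and 636 without the filter, and 0 to 13 lower and 40 to 124 higher with a library left out. Route and sex rest on 2 libraries per arm, and each untreated cell type rests on 1 library.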
